A study of Mus musculus with 20 samples.

Results

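The response of the gastrocnemius, the large fast mixed muscle of the calf, to 24 h without load was measured on 10 of the 20 arrays of this study. They are the 5 gastrocnemius arrays labelled HLS and the 5 gastrocnemius arrays labelled as controls; the other 10 arrays hold soleus. HLS stands for hind-limb suspension, in which the hind limbs are lifted off the floor and bear no weight. The mice were male ICR, an outbred stock, aged 6 months, with no genetic change named in the labels. Control mice moved freely, and the mice of the suspended group were held at a head-down tilt of 45° for 24 h. Each array carried 600 ng of total RNA from the muscle of 1 mouse, so a group is 5 mice, and control and suspended mice were different animals. The RNA came from whole muscle, which also holds vessels, nerve, connective tissue and blood, so that fewer cells of a type and less RNA per cell cannot be told apart.

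Muscle fibres sense load through the Z-disc, titin and the costameres, which couple the contractile lattice to the cytoskeleton and the matrix outside the cell. Loading keeps genes of serum response factor (SRF), of the muscle ankyrin repeat proteins and of the heat shock system active. When load is lost, FoxO factors and the glucocorticoid receptor can switch on ubiquitin ligases and brakes on protein synthesis, and fibres lose protein. The gastrocnemius is built mostly of fast fibres and carries less postural load than the soleus.

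Values are log2 of the spot intensity over the array's 75th percentile, so that 0 is the brightness of that percentile. A change is the mean of the HLS arrays minus the mean of the control arrays on that scale, given with its standard error (SE) from limma. A gene is said to have passed, and to be higher or lower, at an adjusted p below 0.05 after Benjamini-Hochberg over all 24197 genes tested. The array layout limits every value below. Slide 1 held controls 1 and 2, slide 2 held controls 3, 4 and 5 together with HLS 1, and slide 3 held HLS 2 to 5. Slides 1 and 2 were scanned on one day and slide 3 on another. HLS 1 is therefore the only suspended array that shares a slide or a scan day with controls, and for HLS 2 to 5 the slide, the scan day and the suspension cannot be told apart. For this reason the difference within slide 2, which is HLS 1 minus the mean of controls 3, 4 and 5, is given beside the changes; it rests on 1 mouse and has no test.

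Array quality was even. The 75th percentile lay between 385.5 and 736.1 intensity units. The share of non-control spots well above background was 80.7% to 91.4%, and arrays of a group correlated at 0.971 to 0.983 over all probes. Spike-in RNA of the E1A probes stood at 3.1 ± 0.095 in controls and at 2.23 ± 0.152 in HLS (SD, n = 5), with HLS 1 at 2.49 and HLS 2 to 5 at 2.12 to 2.18. With each array scaled to its spike-ins instead, the median change over all genes was 0.886, against 0.012 with the 75th percentile, so every direction here is relative to the bulk of the genes on the array.

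The label of the muscle was checked against fibre genes. Myh4, the myosin of the fastest fibres, read 8.50 to 8.75 in controls and 8.35 to 8.96 in HLS, and Actn3, the alpha-actinin of fast fibres, read 7.45 to 8.21 and 7.87 to 8.37. In soleus the same probes spanned 4.21 to 9.47 and 1.44 to 7.91, the upper end of both being the soleus array of HLS 1. The slow troponin Tnni1 read 2.95 to 4.18 in control and 2.56 to 3.68 in HLS gastrocnemius, against 4.15 to 7.35 in soleus. Myh4 and Actn3 were thus high on all 10 arrays, but not every fibre gene followed the label. The fast troponins Tnni2 and Tnnc2 read 8.52 to 8.93 and 8.23 to 8.82 over the gastrocnemius arrays. In soleus they were higher, at 8.98 to 9.36 and 9.04 to 9.45. The slow myosin light chain Myl2 overlapped, at 5.03 to 6.66 in gastrocnemius against 5.70 to 8.71 in soleus.

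In all, 1252 genes passed, which is 5.17% of those tested and the share to set beside each list's count below. The lists and their members were chosen with earlier results of these data known, so a share above 5.17% can be partly built in. Of the 1252 genes, 468 were higher after suspension (1.93%) and 784 were lower (3.24%). The median size of a passing change was 0.56, and 145 genes passed with a change of at least 2-fold, 63 upward and 82 downward. Within slide 2, 104 of those 145 were also at least 2-fold apart in the same direction, a count that is partly built in, since HLS 1 and controls 3 to 5 helped to choose the 145. The groups of 5 did not overlap for 1862 genes (7.7%), and 1115 of these passed. An unadjusted p below 0.05 was reached by 4557 genes. The split of 37.4% upward rests on the scaling: with each array scaled to its median, 1119 genes passed, 289 upward and 830 downward (25.8% upward). With slide as a block, which leaves HLS 1 against controls 3 to 5 as the only contrast, 19 genes passed, and with scan day as a block 70. Leaving out 1 array gave between 767 (without HLS 5) and 1085 (without control 5) passing genes. Counts fell by over 1.5 times without control 2 (773), HLS 4 (824) and HLS 5.

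**Figure D1:**
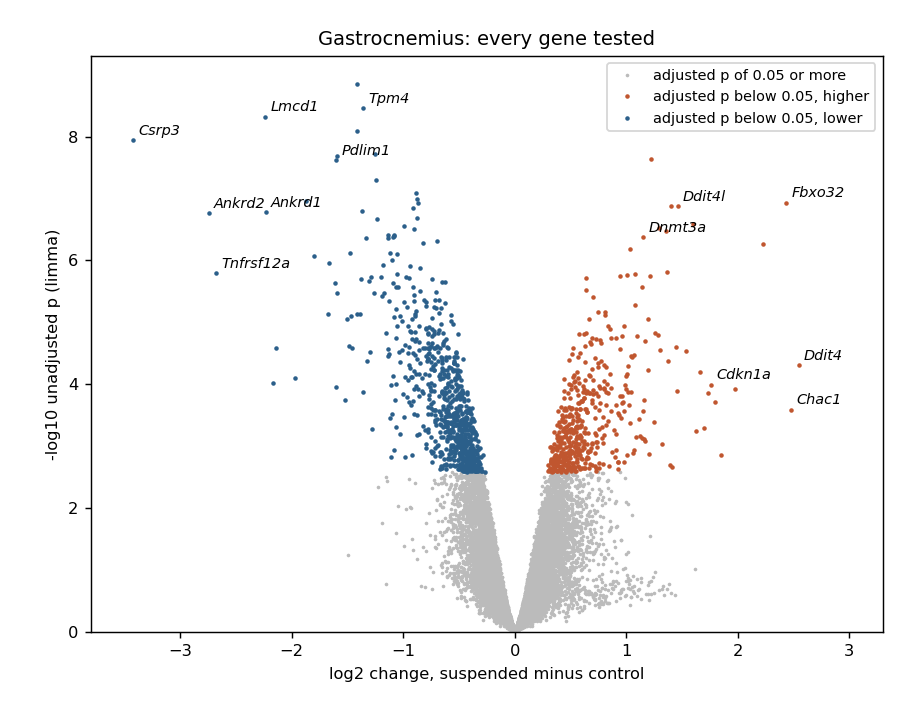
Change of each of the 24197 genes tested (log2, suspended minus control, x axis) against the -log10 of its unadjusted p from limma (y axis). Orange marks the 468 genes with a higher and blue the 784 genes with a lower level at an adjusted p below 0.05; Csrp3 stands furthest to the left at -3.42 and Ddit4 furthest to the right at 2.55.

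The genes with the largest changes were taken as the 15 highest and 15 lowest of the genes that passed and had no overlap between the groups, leaving out clone and accession names. The lower end was led, in order of size, by Csrp3 (muscle LIM protein), the ankyrin repeat gene Ankrd2, Tnfrsf12a, the receptor of the cytokine TWEAK, Lmcd1, the ankyrin repeat gene Ankrd1, Nmrk2, a kinase of NAD synthesis, and Xirp1. The upper end was led by Ddit4, an inhibitor of mTORC1, by Chac1, which degrades glutathione, and by Fbxo32, the ubiquitin ligase atrogin-1. Fbxo32 rose 5.41-fold and Csrp3 fell 10.7-fold. Of these 30 genes, 8 still passed when slide entered the fit as a block and 11 when scan day did.

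**Figure D2:**
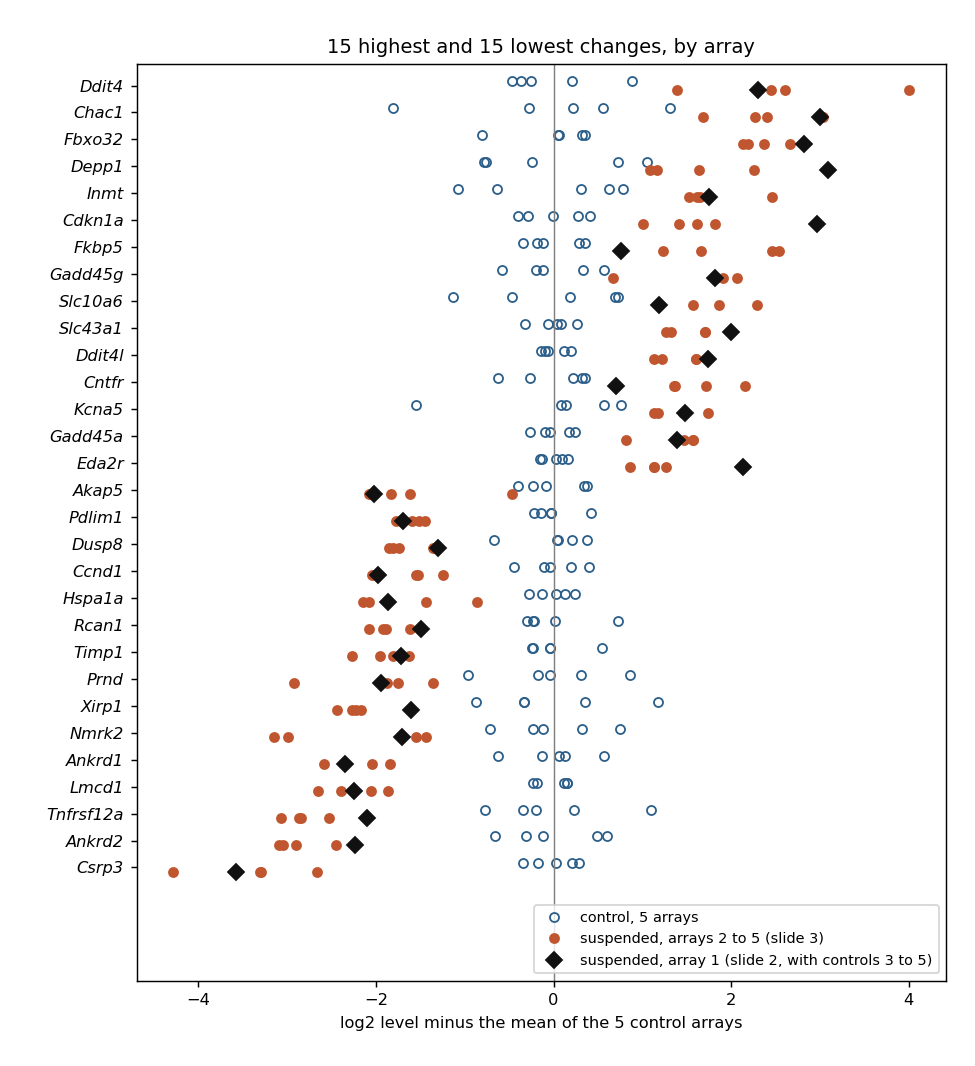
Level of the 15 genes with the highest and the 15 with the lowest change on each of the 10 gastrocnemius arrays, as log2 level minus the mean of the 5 controls (x axis). Open circles are controls, filled circles HLS 2 to 5, and black diamonds HLS 1, which lay on a slide with controls; for Cdkn1a and Depp1 the diamond stands above the other suspended arrays, and for Fkbp5 and Cntfr below them.

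For 27 of these 30 genes the RefSeq promoter table (GRCm38.p6) holds a window from 250 bases before to 50 after the gene's start. The windows were searched on both strands for motifs of factors that act in load and stress responses. Those of Chac1 and Gadd45g, both among the genes that rose most, share a match to the amino acid response element TGATGNAA, a binding site of ATF4. Lmcd1, among the genes that fell most, has a CArG box, the binding site of SRF, and a cAMP response element, TGACGTCA. Ankrd1 has the MCAT element CATTCC, the binding site of TEAD factors, at 2 positions. These 4 windows are shown because their genes lie at the ends of the response and hold a match. Capitals mark the named motifs, which may stand as the reverse complement. The window of Chac1 is chr2:119350992-119351291 on the plus strand, that of Gadd45g chr13:51846425-51846724 on the plus strand, that of Lmcd1 chr6:112273508-112273807 on the plus strand and that of Ankrd1 chr19:36119795-36120094 on the minus strand.
Chac1: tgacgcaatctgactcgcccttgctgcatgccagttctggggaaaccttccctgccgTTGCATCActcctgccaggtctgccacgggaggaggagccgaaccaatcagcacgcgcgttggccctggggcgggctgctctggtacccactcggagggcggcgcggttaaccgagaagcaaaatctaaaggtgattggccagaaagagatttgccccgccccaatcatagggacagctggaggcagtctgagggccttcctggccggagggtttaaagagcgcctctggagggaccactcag
Gadd45g: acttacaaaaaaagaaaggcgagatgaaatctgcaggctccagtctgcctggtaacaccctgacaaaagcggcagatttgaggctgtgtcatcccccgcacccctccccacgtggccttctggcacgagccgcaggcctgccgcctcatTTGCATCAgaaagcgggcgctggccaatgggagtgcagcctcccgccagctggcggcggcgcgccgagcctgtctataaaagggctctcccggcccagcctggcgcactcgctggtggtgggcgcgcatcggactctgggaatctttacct
Lmcd1: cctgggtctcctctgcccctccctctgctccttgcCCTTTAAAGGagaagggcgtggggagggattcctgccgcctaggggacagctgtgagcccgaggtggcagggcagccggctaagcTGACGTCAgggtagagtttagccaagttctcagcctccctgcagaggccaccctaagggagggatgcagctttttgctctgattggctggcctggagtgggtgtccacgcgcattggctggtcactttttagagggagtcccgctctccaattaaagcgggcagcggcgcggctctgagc
Ankrd1: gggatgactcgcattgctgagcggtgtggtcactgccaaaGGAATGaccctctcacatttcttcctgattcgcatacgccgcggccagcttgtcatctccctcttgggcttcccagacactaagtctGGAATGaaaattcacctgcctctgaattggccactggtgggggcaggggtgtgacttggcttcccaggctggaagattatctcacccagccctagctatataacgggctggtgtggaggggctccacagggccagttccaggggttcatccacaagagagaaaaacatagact
None of the marked matches overlaps another. Among all 32817 windows of this length, 3.97% hold the amino acid response element, 1.63% the CArG box, 1.79% the cAMP response element and 14.7% the MCAT element. Of the 14 genes with a window at the upper end, 2 hold the amino acid response element and none of the 13 at the lower end does. The cAMP response element stands in windows of 3 of the 13 genes at the lower end (Lmcd1, Rcan1 and Dusp8) and of none at the upper end. The MCAT element stands in windows of 5 genes at the upper and 3 at the lower end. A gene was counted if any of its windows held a match, whereas the shares over all windows are per window. A glucocorticoid response element is in the windows of Slc10a6 and Kcna5, and in 0.475% of all windows. The forkhead element GTAAACA is in that of Eda2r and in 3.65% of all windows. The AP-1 element TGANTCA stands in that of Rcan1 and in 7.81% of all windows. A heat shock element, present in 0.603% of all windows, was in no window of the 27 genes. A match is a stretch of letters and not a measured site.

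Genes that respond to stretch of the fibre fell far more often than they rose. Of the 47 tested, 17 were lower and 1 was higher, and the list's median change was -0.39 (-0.27 within slide 2). Csrp3, whose protein links the Z-disc to the nucleus, read 5.08, 5.44, 5.62, 5.24 and 5.70 on the control arrays and 1.84, 1.13, 2.76, 2.11 and 2.12 on the HLS arrays. The lowest control lay well over 2 log2 units above the highest suspended array. The change was -3.42 ± 0.25 (adjusted p = 5.55e-05), and -3.68 within slide 2. Ankrd2, which binds titin at the I-band, read 4.41, 5.55, 5.68, 4.94 and 4.76 in controls and 2.84, 2.03, 2.62, 1.97 and 2.17 in HLS. Its change was -2.74 ± 0.25 (adjusted p = 0.000200; -2.29 within slide 2). Its relative Ankrd1 read 0.96, 0.69, 0.20, 1.39 and 0.88 in controls and -1.53, -1.01, -1.52, -1.76 and -1.22 in HLS, a change of -2.23 ± 0.20 (adjusted p = 0.000200; -2.35 within slide 2). For both ankyrin repeat genes every suspended array stood below every control.

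Tnfrsf12a read 2.25, 4.12, 3.26, 2.68 and 2.83 in controls and 0.93, 0.17, -0.04, 0.18 and 0.50 in HLS. Control 2 was the highest and HLS 1 the highest of its group, with no overlap. The change was -2.68 ± 0.30 (adjusted p = 0.000769; -1.99 within slide 2). Lmcd1, a LIM protein of striated muscle, read 3.44, 3.82, 3.82, 3.48 and 3.78 in controls and 1.42, 1.01, 1.80, 1.61 and 1.28 in HLS. Both groups were tight and lay more than 1 log2 unit apart, and the change was -2.24 ± 0.15 (adjusted p = 3.81e-05; -2.28 within slide 2). Xirp1, whose Xin repeats bind actin at sites of fibre repair, read 1.96, 3.47, 2.65, 1.96 and 1.42 in controls and 0.69, 0.07, 0.02, -0.15 and 0.13 in HLS. Control 2 again stood highest and HLS 1 was the least low of its group. The change was -2.14 ± 0.32 (adjusted p = 0.00340), and -1.32 within slide 2. Abra, an actin-binding activator of SRF signalling, changed by -1.41 ± 0.19 (adjusted p = 0.00174; -0.91 within slide 2). Rcan1, the inhibitor of calcineurin, changed by -1.80 ± 0.19 (adjusted p = 0.000469), with its 2 probes at -1.80 to -0.53. Other genes of the lower end were Prnd, a relative of the prion protein (-1.97 ± 0.33, adjusted p = 0.00625), the MAP kinase phosphatase gene Dusp8 (-1.61 ± 0.19, adjusted p = 0.000833) and the kinase anchor gene Akap5 (-1.60 ± 0.28, adjusted p = 0.00774). Akap5 was well above background on 2 of 5 HLS arrays. The member that rose was Pdlim5, a Z-disc LIM protein, at 1.08 ± 0.14 (adjusted p = 0.00142). Its 5 probes spanned -0.24 to 1.16, so its direction depends on the probe. The count for the list was 18 to 20 when 1 array was left out, and was 2 with slide and 4 with scan day as a block.

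Fewer genes of the sarcomere passed. Of 43 genes of the sarcomere, Z-disc and costamere, 8 were lower and 1 (Pdlim5) was higher, with a median of -0.15, and -0.01 within slide 2. Lmod3, which nucleates thin filaments, changed by -1.11 ± 0.19 (adjusted p = 0.00746). Synpo2, a Z-disc partner of filamin, read 6.99, 7.03, 6.98, 7.03 and 6.94 in controls and 6.01, 6.06, 6.05, 6.19 and 6.22 in HLS, groups that were tight and far apart. It changed by -0.89 ± 0.08 (adjusted p = 0.000180; -0.97 within slide 2; 4 probes at -1.01 to -0.14), and Synpo2l, its relative, by -0.86 ± 0.12 (adjusted p = 0.00229). The alpha-actinin partner Pdlim1 read 4.73, 4.62, 5.18, 4.73 and 4.55 in controls and 3.07, 2.99, 3.32, 3.17 and 3.25 in HLS, a change of -1.60 ± 0.12 (adjusted p = 6.47e-05; -1.75 within slide 2). Pdlim1 is not a member of this list, whose count was 15 in place of 9 without control 5.

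The cytoskeleton list held the largest share of passing genes on the lower side. Of 38 cytoskeletal genes and SRF targets, 17 were lower and 0 were higher, with a median of -0.45 (-0.52 within slide 2) and passing changes of -1.47 to -0.35. Tpm4, a tropomyosin outside the sarcomere, read 3.45, 3.63, 3.67, 3.42 and 3.49 in controls and 2.00, 2.17, 2.29, 2.23 and 2.18 in HLS. Every suspended array stood more than 1 log2 unit below every control, and the change was -1.36 ± 0.09 (adjusted p = 3.81e-05; -1.53 within slide 2). Tuba1a, an alpha-tubulin with close copies that a probe may not separate, changed by -1.47 ± 0.20 (adjusted p = 0.00179). Myh10, a non-muscle myosin, changed by -1.37 ± 0.12 (adjusted p = 0.000200), with -1.40 within slide 2. Tagln, a smooth muscle and SRF target gene, changed by -0.70 ± 0.16 (adjusted p = 0.0285); its call was lost without control 2, control 4, HLS 2, HLS 4 or HLS 5 (adjusted p up to 0.0728). Leaving out 1 array gave 12 to 18 passing genes. The markers of smooth muscle and pericytes moved in the same direction: 3 of 14 were lower (Tagln, Notch3 at -0.43 and Cspg4 at -0.40), and their mean level ran from 2.55 to 2.82 in controls and from 2.32 to 2.45 in HLS. The call of Cspg4 was lost without control 2, control 3, HLS 4 or HLS 5, and with the mean of its 3 probes, which spanned -0.40 to -0.03. The part of these cells in the fall of the cytoskeletal genes was not tested.

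Chaperone genes that passed were nearly all lower. Of 47 heat shock and chaperone genes, 13 were lower, 1 was higher, and the median was -0.20 (-0.15 within slide 2). Hspa1a, the inducible Hsp70, read 1.17, 1.55, 1.33, 1.03 and 1.44 in controls and -0.56, -0.84, 0.44, -0.77 and -0.13 in HLS. HLS 3 was the least low, and the groups did not overlap. The change was -1.68 ± 0.22 (adjusted p = 0.00174; -1.83 within slide 2). Hspa1a has a near-identical copy, and its 4 probes spanned -1.69 to -0.08. The Hsp40 partners Dnaja4 and Dnajb4 changed by -1.29 ± 0.15 (adjusted p = 0.000769) and -1.23 ± 0.12 (adjusted p = 0.000222). The 2 probes of Dnaja4 stood at -1.29 to -0.29 and the 3 of Dnajb4 spanned -1.23 to -0.22; with the mean of probes the changes were -0.79 and -0.74. The member that rose was Fkbp5, a co-chaperone of the glucocorticoid receptor, described with the targets of that receptor. Leaving out 1 array gave 12 to 14 passing genes, and a slide block left 0.

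In the list of the unfolded protein and ATF4 response, 8 of 42 genes were lower and 2 were higher, with a median of -0.10. The chaperones of the endoplasmic reticulum were on the lower side: Hspa5 (BiP) changed by -0.76 ± 0.13 (adjusted p = 0.00595) and the disulfide isomerase Pdia6 by -0.72 ± 0.11 (adjusted p = 0.00340), with probes of Pdia6 spanning -0.72 to 0.04. The stress factor Atf3 changed by -1.51 ± 0.20 (adjusted p = 0.00190) and Ddit3 (CHOP) by -0.40 ± 0.09 (adjusted p = 0.0298). Chac1, a target of ATF4, went the other way. It read 3.13, 0.02, 2.38, 2.05 and 1.56 in controls and 4.83, 3.51, 4.86, 4.23 and 4.09 in HLS. Control 2 was far below the other controls, and the groups did not overlap. The change was 2.48 ± 0.48 (adjusted p = 0.0128), and 2.83 within slide 2. The list's count was 6 without control 2, control 4 or HLS 3 and 5 without HLS 5. The call of Ddit3 was lost in 7 of the 10 such fits, that is without any 1 array other than control 1, control 3 or HLS 4 (adjusted p up to 0.0769).

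Genes of the matrix that passed were all lower. Of 49 genes of collagens and the extracellular matrix, 17 were lower and 0 higher, with a median of -0.29 (-0.28 within slide 2). The largest fall was that of Serpinh1, the collagen chaperone Hsp47. Its arrays read 5.11, 5.71, 5.47, 5.69 and 5.89 in controls and 4.40, 4.68, 4.40, 4.50 and 4.25 in HLS, a change of -1.13 ± 0.14 (adjusted p = 0.00130). Col14a1, a fibril-associated collagen, changed by -0.97 ± 0.12 (adjusted p = 0.00150) and Thbs1, thrombospondin, by -0.88 ± 0.15 (adjusted p = 0.00584). Tenascin C (Tnc) changed by -0.59 ± 0.10 (adjusted p = 0.00492). Other probes of these genes moved less: the 2 of Col14a1 stood at -0.97 to -0.13, the 3 of Thbs1 spanned -0.88 to -0.18 and the 2 of Tnc stood at -0.59 to 0.02. With the mean of probes the calls of Thbs1 (adjusted p = 0.0550) and Tnc (adjusted p = 0.192) were lost, and Thbs1 was at 0.0531 in the fit of 20 arrays. Among 30 matrix proteases and inhibitors, 4 were lower. Timp1, an inhibitor of matrix metalloproteinases, read 1.80, 2.38, 1.59, 1.60 and 1.79 in controls and 0.12, 0.21, -0.44, 0.02 and -0.12 in HLS, and changed by -1.88 ± 0.17 (adjusted p = 0.000190; -1.55 within slide 2). Its 3 probes spanned -1.88 to -0.32. Adamts8 changed by -1.16 ± 0.16 (adjusted p = 0.00258; 3 probes at -1.16 to -0.14, and adjusted p = 0.117 in the fit of 20 arrays) and Adamts1 by -0.67 ± 0.14 (adjusted p = 0.0170), but Adamts1 differed by -0.25 within slide 2 and lost its call with the mean of its probes (adjusted p = 0.0510). Fibroblast markers had 2 of 14 lower (Ly6a at -0.59, Mfap5 at -0.54) and a mean level of 3.39 to 3.64 in controls and 3.23 to 3.49 in HLS. Tendon markers had 2 of 12 lower (Scx at -0.75, and Tnc) and a mean level of 2.13 to 2.39 and 1.73 to 2.29. Their part in the fall of the matrix genes was not tested.

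Angiogenic genes showed 4 of 39 lower and 0 higher, with a median of -0.11. Vegfa, the main growth factor of capillaries, read 2.68, 2.68, 2.93, 2.69 and 2.38 in controls and 1.77, 1.64, 1.51, 1.33 and 1.10 in HLS, a change of -1.20 ± 0.14 (adjusted p = 0.000769; -0.89 within slide 2). Its 3 probes spanned -1.20 to -0.31. Its receptor gene Kdr changed by -1.12 ± 0.23 (adjusted p = 0.0151), with its 2 probes at -1.12 to 0.06. Endothelial markers had 1 of 15 lower, which was Kdr itself, and their mean level was 2.01 to 2.16 in controls and 1.96 to 2.23 in HLS.

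**Figure D3:**
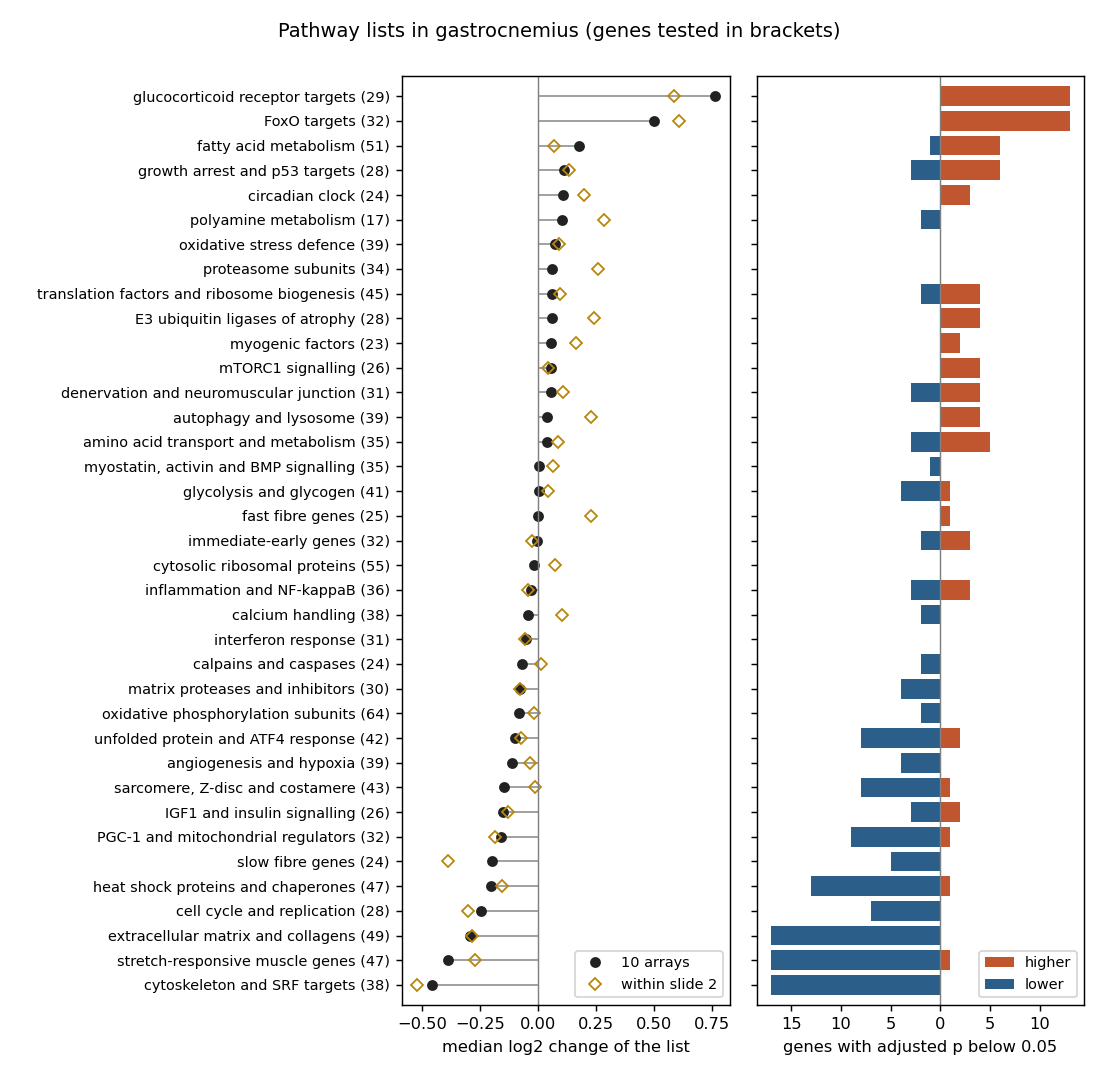
Left, median log2 change of each of the 37 pathway lists over all 10 arrays (filled) and within slide 2 (open diamonds); right, number of its genes with an adjusted p below 0.05, higher to the right and lower to the left, with the number tested in brackets after each name. The glucocorticoid and FoxO lists stand at the top with 13 higher and 0 lower genes each, and the cytoskeleton, stretch and matrix lists at the bottom with 17 lower genes each.

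Ubiquitin ligases of atrophy were a small group. Of 28 ligases, 4 were higher and 0 lower, and the median was 0.06, and the other 24 did not pass. Fbxo32, which marks muscle proteins for the proteasome, read 2.22, 1.06, 1.92, 2.19 and 1.93 in controls and 4.68, 4.05, 3.99, 4.24 and 4.52 in HLS. Control 2 lay below the other controls, and the lowest suspended array stood well above the highest control. The change was 2.43 ± 0.22 (adjusted p = 0.000190; 2.67 within slide 2), and it kept its call with slide (adjusted p = 0.0461) and with scan day (adjusted p = 0.0159) as a block. Trim63, the ligase MuRF1, read 3.83, 3.77, 3.69, 3.97 and 3.18 in controls and 5.11, 4.45, 4.29, 4.49 and 4.92 in HLS. The groups did not overlap, with HLS 1 highest. The change was 0.96 ± 0.18 (adjusted p = 0.0107), against 1.5 within slide 2. Its 2 probes stood at 0.53 to 0.96, and the call was lost with their mean (adjusted p = 0.0528) and in the fit of all 20 arrays (adjusted p = 0.124). Fbxo31, another F-box gene, changed by 0.69 ± 0.16 (adjusted p = 0.0267). The list's count fell to 2 without control 2, control 3, HLS 1, HLS 3 or HLS 5, and the call of Fbxo31 was lost in the same 5 fits (adjusted p up to 0.0696). Of 34 proteasome subunits, 0 passed in limma, with 3 at an unadjusted p below 0.05 and a median of 0.06 (0.26 within slide 2). Its lowest p values were those of Psmc1 (0.33, adjusted p = 0.147) and Psma5 (0.31, adjusted p = 0.225).

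Targets of the FoxO factors that passed were all higher. Of 32 tested, 13 were higher and 0 lower, with a median of 0.50 (0.61 within slide 2). The factors themselves did not pass: Foxo1 stood at 0.51 ± 0.29 (adjusted p = 0.389), with HLS 5 at 2.95 and the other suspended arrays at 1.19 to 1.72, and Foxo3 at 0.19 ± 0.18 (adjusted p = 0.630). Depp1, a FoxO target, read 1.13, -0.16, 0.80, -0.68 and -0.70 in controls and 3.17, 1.16, 1.72, 1.24 and 2.34 in HLS. HLS 1 was the highest and HLS 2 barely above control 1. The change was 1.85 ± 0.45 (adjusted p = 0.0350), against 3.36 within slide 2. Its call was lost without control 2, control 4, control 5, HLS 1, HLS 3 or HLS 5 (adjusted p up to 0.0905; changes of 1.54 to 2.11). Pik3ip1, an inhibitor of phosphoinositide 3-kinase, changed by 1.00 ± 0.18 (adjusted p = 0.00806; 1.05 within slide 2; 2 probes at 0.16 to 1.00). The list's count was 8 without control 2, HLS 1 or HLS 3 and 7 without HLS 5.

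Targets of the glucocorticoid receptor had the highest median of all 37 pathway lists, 0.76 (0.59 within slide 2), with 13 of 29 higher and 0 lower. Fkbp5, a direct target, read 0.04, -0.37, 0.10, -0.59 and -0.44 in controls and 0.51, 0.98, 1.41, 2.28 and 2.21 in HLS. HLS 1 was the lowest of its group and HLS 4 and 5 the highest. The change was 1.73 ± 0.31 (adjusted p = 0.00852), but 0.82 within slide 2 and 0.71 to 1.73 over its 3 probes. Glul, glutamine synthetase, changed by 1.16 ± 0.22 (adjusted p = 0.00999), Cebpd by 1.32 ± 0.30 (adjusted p = 0.0270) and Cebpb by 0.75 ± 0.19 (adjusted p = 0.0411). The mean level of the list was 1.81, 1.54, 1.90, 1.70 and 1.64 on the controls and 2.52, 2.12, 2.40, 2.52 and 2.99 on the HLS arrays, with no overlap and HLS 5 the highest. The metallothioneins, which glucocorticoids and metals induce, did not pass: Mt1 read 0.70, 0.68, 1.43, 0.85 and 0.91 in controls and 1.31, 0.88, 1.87, 1.90 and 3.12 in HLS (0.90 ± 0.34, adjusted p = 0.163), and Mt2 stood at 1.22 ± 0.49 (adjusted p = 0.197). HLS 5 was the highest array for both. The call of Cebpd was lost without any 1 array other than control 1 or HLS 2 (adjusted p up to 0.0743), and that of Cebpb without any 1 array other than control 5 or HLS 2 (adjusted p up to 0.0982). The FoxO and glucocorticoid lists share genes, among them Fbxo32, Trim63, Ddit4, Cdkn1a and Gadd45a.

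Genes of growth arrest split in direction: 6 of 28 were higher and 3 lower, with a median of 0.11. Cdkn1a, the cyclin kinase inhibitor p21, read -0.56, -0.28, -0.14, -0.96 and -0.84 in controls and 2.41, 1.06, 0.86, 0.46 and 1.26 in HLS. HLS 1 stood well above the others, and the groups did not overlap. The change was 1.76 ± 0.31 (adjusted p = 0.00742), against 3.06 within slide 2. Gadd45a, which acts in denervated and unloaded fibres, read 1.18, 1.40, 1.35, 1.61 and 1.68 in controls and 2.84, 3.02, 2.92, 2.26 and 3.02 in HLS, a change of 1.37 ± 0.15 (adjusted p = 0.000754; 1.29 within slide 2). Its relative Gadd45g, whose window is printed above, read 4.72, 3.81, 4.96, 4.27 and 4.19 in controls and 6.21, 5.06, 6.30, 6.22 and 6.45 in HLS, with HLS 2 just above the highest control. It changed by 1.66 ± 0.27 (adjusted p = 0.00548). Eda2r, a receptor of the TNF receptor family, changed by 1.31 ± 0.20 (adjusted p = 0.00352), against 2.20 within slide 2, and its 2 probes stood at 0.30 to 1.31. On the lower side were Zmat3 (-0.63 ± 0.08, adjusted p = 0.00134), Trp53inp2 (-0.54 ± 0.11, adjusted p = 0.0146) and Ddit3.

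Several brakes on mTORC1, the kinase complex that drives protein synthesis, rose. Of 26 genes of mTORC1 signalling, 4 were higher and 0 lower, with a median of 0.06. Ddit4 (REDD1) read 3.02, 2.44, 3.70, 2.55 and 2.34 in controls and 5.11, 4.20, 5.26, 5.41 and 6.81 in HLS. HLS 5 stood highest, more than 1 log2 unit above the next array. The change was 2.55 ± 0.41 (adjusted p = 0.00470), and 2.24 within slide 2. Ddit4l (REDD2) was steadier, with 4.47, 4.13, 4.21, 4.40 and 4.17 in controls and 6.01, 5.88, 5.50, 5.87 and 5.40 in HLS. It changed by 1.46 ± 0.13 (adjusted p = 0.000190; 1.76 within slide 2). Sesn1, a leucine-sensing inhibitor, changed by 0.82 ± 0.13 (adjusted p = 0.00492; 3 probes at 0.31 to 0.82) and Eif4ebp1, which blocks cap-dependent translation, by 0.65 ± 0.15 (adjusted p = 0.0274). The call of Eif4ebp1 was lost without any 1 array other than control 1, control 4 or HLS 2 (adjusted p up to 0.0744). Among 45 translation factors and ribosome biogenesis genes, 4 were higher and 2 lower (3 genes in all without control 3, HLS 4 or HLS 5). The cap-binding protein gene Eif4e changed by -0.57 ± 0.08 (adjusted p = 0.00198) and the scaffold gene Eif4g3 by 0.60 ± 0.11 (adjusted p = 0.0102). The 3 probes of Eif4e spanned -0.57 to -0.15. Of 55 cytosolic ribosomal protein genes 0 passed in limma, with 5 at an unadjusted p below 0.05 and a median of -0.02.

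Genes of insulin and IGF1 signalling were 2 higher and 3 lower of 26. Irs1, the docking protein of the insulin receptor, read 3.77, 4.44, 3.34, 3.93 and 3.90 in controls and 2.95, 2.72, 2.07, 2.13 and 2.09 in HLS. HLS 1 was the least low, and the groups did not overlap. The change was -1.48 ± 0.22 (adjusted p = 0.00336), but -0.78 within slide 2 and -1.48 to -0.11 over its 2 probes. Igf1r changed by 0.59 ± 0.12 (adjusted p = 0.0180, and 0.0506 without HLS 5), but its 4 probes spanned 0.06 to 0.59 and the call was lost with their mean (0.28, adjusted p = 0.107), while Igf1 itself, the growth factor, stood at -0.38 ± 0.18 (adjusted p = 0.270). Myostatin (Mstn), the inhibitor of muscle growth, stood at 0.29 ± 0.12 (adjusted p = 0.204). In its pathway 0 of 35 genes were higher and 1 was lower, the receptor gene Bmpr1a at -0.36 ± 0.09 (adjusted p = 0.0384), whose call was lost without any 1 of the 10 arrays (adjusted p up to 0.0964).

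Autophagy genes were 4 higher and 0 lower of 39, with a median of 0.04. Atg14, a subunit of the kinase complex that starts autophagosomes, changed by 0.52 ± 0.08 (adjusted p = 0.00382), but its 2 probes stood at 0.06 to 0.52 and their mean did not pass (adjusted p = 0.0613). The lysosomal protease Ctsl changed by 0.63 ± 0.14 (adjusted p = 0.0209) and the starter kinase Ulk1 by 0.53 ± 0.13 (adjusted p = 0.0330). This count fell to 1 without control 2 or HLS 5 and to 2 without control 3, HLS 1 or HLS 3; Ctsl lost its call without control 2 or HLS 5, and Ulk1 without any 1 array other than control 4, control 5 or HLS 2. Among calpains and caspases 2 of 24 were lower (Casp12 at -0.57 and Aifm1 at -0.28) and 0 higher. The call of Casp12 was lost without any 1 array other than control 2, HLS 4 or HLS 5 and that of Aifm1 without any 1 array other than control 5.

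Genes that answer to loss of nerve input moved both ways: 4 of 31 were higher and 3 lower, with a median of 0.05. Hdac4, the histone deacetylase that couples nerve activity to muscle genes, read 0.79, 0.92, 1.11, 1.05 and 0.89 in controls and 2.51, 2.31, 2.30, 1.82 and 2.27 in HLS. All suspended arrays stood clear of the controls, and the change was 1.29 ± 0.12 (adjusted p = 0.000281; 1.49 within slide 2). Chrna1, the alpha subunit of the acetylcholine receptor, read 2.11, 2.28, 2.42, 2.01 and 1.95 in controls and 3.51, 2.78, 3.04, 2.64 and 2.91 in HLS. It changed by 0.82 ± 0.16 (adjusted p = 0.0114), with 1.38 within slide 2, where HLS 1 was the highest array. Myog, the myogenic factor that drives receptor genes after denervation, read -0.23, 0.27, 1.19, 0.78 and 0.51 in controls and 1.41, 1.47, 1.01, 1.52 and 1.76 in HLS. Here the groups overlapped, since control 3 stood above HLS 3. Its change of 0.93 ± 0.23 passed (adjusted p = 0.0401), but the call was lost without any 1 array other than control 3 or HLS 3 (adjusted p up to 0.101). On the lower side, beside Ankrd1, were Nes (nestin, -0.94 ± 0.10, adjusted p = 0.000622) and Dok7, the adaptor of the kinase MuSK (-0.76 ± 0.13, adjusted p = 0.00774). Schwann cell and nerve markers had 1 of 17 higher, Ngfr at 0.94 ± 0.19 (adjusted p = 0.0141). Their mean level was 0.28, 0.11, 0.21, 0.03 and 0.57 on the controls and -0.32, 0.44, 0.90, -0.41 and 0.10 on the HLS arrays, so that HLS 1 and HLS 4 were low and HLS 3 was high. The list's median was -0.20, and -0.85 within slide 2; its part in the changes of the nerve-dependent genes was not tested.

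Of 23 myogenic factors, 2 were higher: Myog and Six4 (0.67 ± 0.11, adjusted p = 0.00595). Satellite cell markers had 1 of 10 lower, the integrin gene Itga7 (-0.35), a call lost without any 1 array other than control 5. Genes of the cell cycle and replication were 7 lower and 0 higher of 28, with a median of -0.24. Ccnd1, cyclin D1, read -0.94, -0.31, -0.10, -0.54 and -0.62 in controls and -2.48, -2.03, -1.75, -2.05 and -2.54 in HLS, with no overlap. It changed by -1.67 ± 0.18 (adjusted p = 0.000595; -2.06 within slide 2), Ccnd2 by -0.90 ± 0.12 (adjusted p = 0.00177) and the replication licensing gene Mcm5 by -1.06 ± 0.18 (adjusted p = 0.00721).

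Most regulators of mitochondria that passed were lower. Of 32 genes of the PGC-1 group, 9 were lower and 1 (Sirt1 at 0.38) was higher, with a median of -0.16 (-0.19 within slide 2). Perm1, a muscle regulator downstream of PGC-1, read 3.66, 3.65, 3.61, 3.44 and 3.08 in controls and 1.89, 1.91, 1.77, 1.85 and 2.07 in HLS, groups more than 1 log2 unit apart at their nearest arrays. It changed by -1.59 ± 0.12 (adjusted p = 6.47e-05; -1.49 within slide 2), and its 2 probes stood at -1.59 to -0.92. The call of Sirt1 was lost without any 1 array other than control 2, HLS 2 or HLS 3. Ppargc1a, the coactivator PGC-1 alpha, read 1.60, 1.27, 1.33, 1.68 and 1.06 in controls and 0.50, 0.48, 0.69, 0.74 and 0.88 in HLS. It changed by -0.73 ± 0.13 (adjusted p = 0.00838; -0.85 within slide 2). Nmrk2, a nicotinamide riboside kinase that feeds the NAD pool, read 4.77, 5.32, 4.28, 5.75 and 4.88 in controls and 3.29, 3.45, 1.86, 2.01 and 3.57 in HLS. HLS 3 and 4 were the lowest, and the change was -2.17 ± 0.38 (adjusted p = 0.00719; -1.68 within slide 2). Few genes of the respiratory chain passed: of 64 subunit genes, 2 were lower (Cox6a1 at -0.62 ± 0.12, Cyc1 at -0.39 ± 0.08; adjusted p = 0.0133 and 0.0138) and 0 higher, with a median of -0.08. Of 39 genes of oxidative stress defence, 0 passed in limma and 8 had an unadjusted p below 0.05; Hmox1 (0.46, adjusted p = 0.0834) and Gpx3 (0.63, adjusted p = 0.102) had the lowest p values.

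Fuel genes showed single large movements within lists of small medians. Of 51 genes of fatty acid metabolism, 6 were higher and 1 was lower, with a median of 0.18. The one that fell was Ppara, the nuclear receptor of fatty acid oxidation. It read 0.27, -0.21, -0.24, -0.22 and -0.82 in controls and -1.60, -1.66, -1.75, -1.59 and -1.53 in HLS, and changed by -1.38 ± 0.16 (adjusted p = 0.000769; -1.18 within slide 2). The thioesterase Acot1 changed by 1.16 ± 0.26 (adjusted p = 0.0236), the lipid droplet gene Plin4 by 0.74 ± 0.17 (adjusted p = 0.0292) and Dgat2, which makes triglyceride, by 0.98 ± 0.24 (adjusted p = 0.0404). Dgat2 differed by 0.02 within slide 2. Calls were lost without control 2, control 3, control 4, HLS 2 or HLS 5 for Acot1, without control 2, control 3, control 4, control 5 or HLS 4 for Plin4 and without any 1 array other than HLS 1 for Dgat2. This list's count was 1 without control 2 or 3, 2 without control 5 or HLS 4, and 3 without control 4 or HLS 5. Of 41 genes of glycolysis and glycogen, 1 was higher and 4 lower (3 in all without HLS 4). Pfkfb3, which makes the activator of glycolysis fructose 2,6-bisphosphate, read 3.15, 3.64, 3.27, 3.34 and 2.52 in controls and 5.95, 5.21, 4.97, 4.68 and 3.59 in HLS. HLS 5 stood below control 2, so the groups overlapped, and the change was 1.70 ± 0.36 (adjusted p = 0.0186; 2.91 within slide 2; 3 probes at 0.76 to 1.70). The lactate transporter gene Slc16a1 changed by -1.09 ± 0.11 (adjusted p = 0.000303) and the enzyme gene Pgam1 by -0.66 ± 0.11 (adjusted p = 0.00508).

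Amino acid genes were 5 higher and 3 lower of 35. Slc43a1, a carrier of branched-chain amino acids, read -0.94, -0.89, -1.04, -0.72 and -1.30 in controls and 1.02, 0.73, 0.29, 0.34 and 0.73 in HLS. The lowest suspended array stood a log2 unit above the highest control, and the change was 1.60 ± 0.15 (adjusted p = 0.000262; 2.04 within slide 2). Gpt2, an alanine transaminase, changed by 0.92 ± 0.18 (adjusted p = 0.0136), while Got1, an aspartate transaminase, changed by -0.57 ± 0.10 (adjusted p = 0.00761) and the glutamine carrier gene Slc38a3 by -0.75 ± 0.11 (adjusted p = 0.00337). In polyamine metabolism 2 of 17 were lower, the antizyme inhibitor gene Azin1 (-1.09 ± 0.18, adjusted p = 0.00606) and the spermidine synthase gene Srm (-0.48 ± 0.09, adjusted p = 0.00891).

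The remaining genes of the upper end have varied roles. Inmt, a methyltransferase, read 0.44, -1.42, -0.98, -0.03 and 0.28 in controls and 1.40, 1.18, 1.27, 1.30 and 2.11 in HLS (1.80 ± 0.34, adjusted p = 0.0106). Cntfr, the receptor of ciliary neurotrophic factor, changed by 1.46 ± 0.26 (adjusted p = 0.00845), but by 0.69 within slide 2. The potassium channel gene Kcna5 read -2.84, -0.54, -0.72, -1.21 and -1.16 in controls and 0.18, -0.17, -0.12, 0.16 and 0.45 in HLS; control 1 was far below the rest. Its change of 1.40 ± 0.35 (adjusted p = 0.0437) lost its call without control 4, control 5 or any 1 HLS array (adjusted p up to 0.104). Slc10a6, a carrier of sulfated steroids, was well above background on 3 of 5 control arrays and changed by 1.62 ± 0.35 (adjusted p = 0.0198). Its call was lost without control 4, HLS 4 or HLS 5 (adjusted p up to 0.0569).

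Clock genes were 3 higher and 0 lower of 24, with a median of 0.11, among them Rora at 0.65 ± 0.13 (adjusted p = 0.0131) and Tef at 0.61 ± 0.12 (adjusted p = 0.0161). The 4 probes of Tef spanned 0.19 to 0.61, and its call was lost with their mean (0.35, adjusted p = 0.126) and in the fit of 20 arrays (adjusted p = 0.158). Immediate-early genes were 3 higher and 2 lower of 32 (3 in all without control 4, HLS 1 or HLS 3), among them Klf10 at 1.05 ± 0.16 (adjusted p = 0.00403) and Jund at -0.67 ± 0.11 (adjusted p = 0.00584). Inflammatory genes were 3 higher and 3 lower of 36. The inhibitor gene Nfkbia changed by 0.80 ± 0.17 (adjusted p = 0.0218) and the factor gene Nfkb1 by -0.44 ± 0.10 (adjusted p = 0.0228), whose 4 probes spanned -0.44 to 0.30. Nfkbia lost its call without control 2, control 4, control 5, HLS 3, HLS 4 or HLS 5, and Nfkb1 without control 1, control 4, HLS 4 or HLS 5. The inflammatory count was 1 without HLS 5, 2 without control 2, 4, 5 or HLS 4, and 3 without control 3 or HLS 3. Of 31 interferon genes 0 passed in limma and 3 had an unadjusted p below 0.05. Macrophage markers had 1 of 18 lower (Adgre1 at -0.57, with 2 probes at -0.57 to 0.23 and a call lost without any 1 array other than HLS 1 or HLS 4), at a mean level of -0.10 to 0.23 in controls and -0.02 to 0.15 in HLS. Of the markers of neutrophils (10), lymphocytes (13), erythroid cells (8) and adipocytes (15), 0 passed in limma, with 0, 5, 0 and 2 at an unadjusted p below 0.05. The mean adipocyte level was 0.85 to 1.24 in controls and 0.67 to 1.06 in HLS.

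Fibre type genes passed mainly on the slow side. Of 24 slow fibre genes, 5 were lower and 0 higher, with a median of -0.20 (-0.39 within slide 2). They include Csrp3, Ankrd2 and Ppargc1a, counted above, and Casq2, the calsequestrin of slow fibres, at -1.03 ± 0.14 (adjusted p = 0.00179; -1.21 within slide 2). Of 25 fast fibre genes, 1 was higher, the myosin kinase gene Mylk2 (0.61 ± 0.15, adjusted p = 0.0381). Its groups overlapped and its call was lost without any 1 array other than control 1, control 4 or HLS 2 (adjusted p up to 0.0951). The myosin heavy chain genes, which define the fibre types, did not pass. Myh7, of slow fibres, stood at -0.03 ± 0.17 (adjusted p = 0.959), Myh2 at -0.14 ± 0.10 (adjusted p = 0.497), Myh1 at -0.01 ± 0.08 (adjusted p = 0.958) and Myh4 at 0.03 ± 0.12 (adjusted p = 0.937). The 95% intervals were -0.41 to 0.36 for Myh7 and -0.23 to 0.28 for Myh4. The 3 probes of Myh1 spanned -0.01 to 0.93, the brightest being at the low end. With the mean of its probes Myh1 passed as higher, so its call depends on the choice of probe. Of 38 calcium handling genes, 2 were lower, Rcan1 and Casq2, and 0 higher. That is 5.26% of the list, against 5.17% of all genes tested. The endothelial (6.67%), Schwann cell and nerve (5.88%), macrophage (5.56%) and fast fibre (4%) lists also lay near the share over all genes. The lists of respiratory chain subunits (3.12%) and of myostatin signalling (2.86%) lay below it.

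Some calls rested on the settings of the fit. In the fit of all 20 arrays 32 of the 126 named genes that passed lost their call, among them Ppargc1a (adjusted p = 0.0837), Casq2 (0.0563), Notch3 (0.0895), Ly6a (0.0953), Mfap5 (0.110), Gpt2 (0.0812), Got1 (0.108), Cyc1 (0.0978), Trp53inp2 (0.0596) and Kcna5 (0.162). With the normexp background correction Slc10a6, Akap5, Azin1 and Mcm5 kept their call, but their changes shrank by over 1.5 times, to 0.91, -0.85, -0.64 and -0.57. Without the filter on dim probes Depp1 lost its call (adjusted p = 0.0575).

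Over the 153 genes of the naming rule, which include 27 that did not pass, the difference within slide 2 had the sign of the change for all 126 that passed. Since controls 3 to 5 and HLS 1 enter both values, this agreement is partly built in. Within slide 2, Depp1 (3.36), Cdkn1a (3.06) and Eda2r (2.20) were more than 1.5 times their change over all arrays. Fkbp5 (0.82), Cntfr (0.69) and Xirp1 (-1.32) were less than the change divided by 1.5. The other 24 of the 30 genes at the ends lay between.

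**Figure D4:**
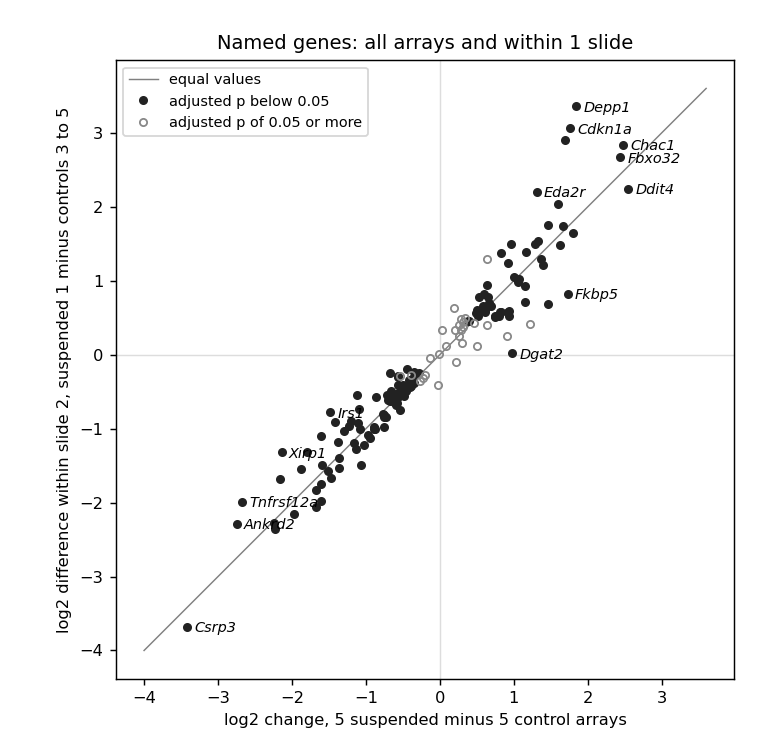
Difference within slide 2 (HLS 1 minus the mean of controls 3 to 5, y axis) against the change over all 10 arrays (x axis), both log2, for the 153 named genes; filled points passed and open points did not. On the right, points above the grey line of equal values, such as Depp1 and Cdkn1a, differed more on that slide than over all arrays, and Fkbp5 and Dgat2 less; on the left, points above the line, such as Xirp1 and Irs1, fell less on that slide.

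Whether the response of the gastrocnemius differs from that of the soleus was tested as the difference of the changes of both muscles over all 20 arrays. In that fit of 25288 genes, 801 passed in gastrocnemius (3.17%) and 1502 in soleus (5.94%), and 2 genes differed between the muscles (0.00791%), with 1455 at an unadjusted p below 0.05. The first was Dnmt3a, a DNA methyltransferase. In gastrocnemius it read 0.11, 0.19, 0.14, 0.23 and 0.05 in controls and 1.07, 1.10, 1.31, 1.68 and 1.31 in HLS, with a change of 1.15 ± 0.11 (adjusted p = 0.000303; 0.93 within slide 2). The change in soleus was -0.38 (adjusted p = 0.0886), and the difference was 1.53 (95% interval 1.15 to 1.90; adjusted p = 0.00102). Its 3 probes stood at -0.24, 0.14 and 1.15 in gastrocnemius. Over the mean of its probes the difference was 0.55 and did not pass (adjusted p = 0.516). The second was Nlrc3, an inhibitory NLR protein, at -0.20 in gastrocnemius and -1.59 in soleus, a difference of 1.38 (95% interval 0.93 to 1.84; adjusted p = 0.0409). With the mean of probes the difference of Nlrc3 was 1.28 and did not pass either (adjusted p = 0.278). Neither passed with a block for slide or for scan day, nor with one for the animal, which pairs the muscles of each mouse (adjusted p = 0.0503 for Dnmt3a and 0.0670 for Nlrc3). Without 1 gastrocnemius array Dnmt3a kept its call throughout, while Nlrc3 kept it only without control 3. Soleus controls 1 to 4 lay on slide 4, control 5 with HLS 1 to 3 on slide 5, and HLS 4 and 5 on slide 6. No slide held both muscles, so a difference between the muscles cannot be fully told apart from slide. The E1A spike-ins were at 1.95 in soleus controls and 2.22 in soleus HLS, the opposite direction to gastrocnemius.

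Among the soleus arrays, that of HLS 1 was the highest for 4 fast fibre genes, picked after their values were seen. Actn3 read 7.91, Mybpc2 8.52, Myh4 9.47 and Pvalb 7.03 on it. On the other 9 soleus arrays Actn3 and Pvalb stayed at or below 5.00 and 5.09, and Mybpc2 at or below 6.65. Myh4 did not set this array apart as clearly. It read 8.51 in soleus HLS 4 and 8.37 in soleus control 1, within the range of the gastrocnemius arrays. Without that array 13 of 25330 genes differed between the muscles (0.0513%), Dnmt3a (1.47, adjusted p = 0.00164) and Nlrc3 (1.27, adjusted p = 0.0244) among them. Pdlim5, the Z-disc LIM protein, was another: its change was 1.08 in gastrocnemius and -0.28 in soleus, a difference of 1.36 (95% interval 0.86 to 1.86) that did not pass over 20 arrays (adjusted p = 0.0669) but passed without the array (1.51, adjusted p = 0.00400). It also passed with normexp, quantile normalization, an intensity trend, a random slide block and probes well above background on all arrays, but not with the mean of its probes (0.60, adjusted p = 0.359), which disagree in direction, or with median scaling, a fixed slide or scan day block, or an animal block. Leaving out another soleus array gave 1 to 4 genes.

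Genes picked after their values were seen are given side by side. The change of Csrp3 was -3.42 in gastrocnemius and -2.46 in soleus, a difference of -0.96 (95% interval -2.05 to 0.13; adjusted p = 0.885). That of Fbxo32 was 2.43 and 2.17 (difference 0.26, interval -0.36 to 0.89; adjusted p = 0.961). The change of Nmrk2 was -2.17 and -4.0 (difference 1.83, interval 0.46 to 3.21; adjusted p = 0.706), that of Abra -1.41 and -2.62 (difference 1.20, interval 0.65 to 1.76; adjusted p = 0.263) and that of Gadd45a 1.37 and 2.77 (difference -1.41, interval -2.19 to -0.62; adjusted p = 0.446). Those differences did not pass, and their intervals do not show that the muscles responded alike. Without the soleus array of HLS 1 the differences were -1.40 for Csrp3 (interval -2.17 to -0.63), 0.34 for Fbxo32, 2.32 for Nmrk2 (interval 1.23 to 3.42), 1.29 for Abra and -1.39 for Gadd45a, with adjusted p of 0.133 (Abra) to 0.900 (Fbxo32). By list, the glucocorticoid median was 0.76 in gastrocnemius and 0.76 in soleus, the stretch median -0.39 and -0.41, and the cytoskeleton median -0.45 and -0.49; without that soleus array the soleus medians were 0.65, -0.50 and -0.44. The soleus arrays came from the same mice, so the comparisons are not independent.

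**Figure D5:**
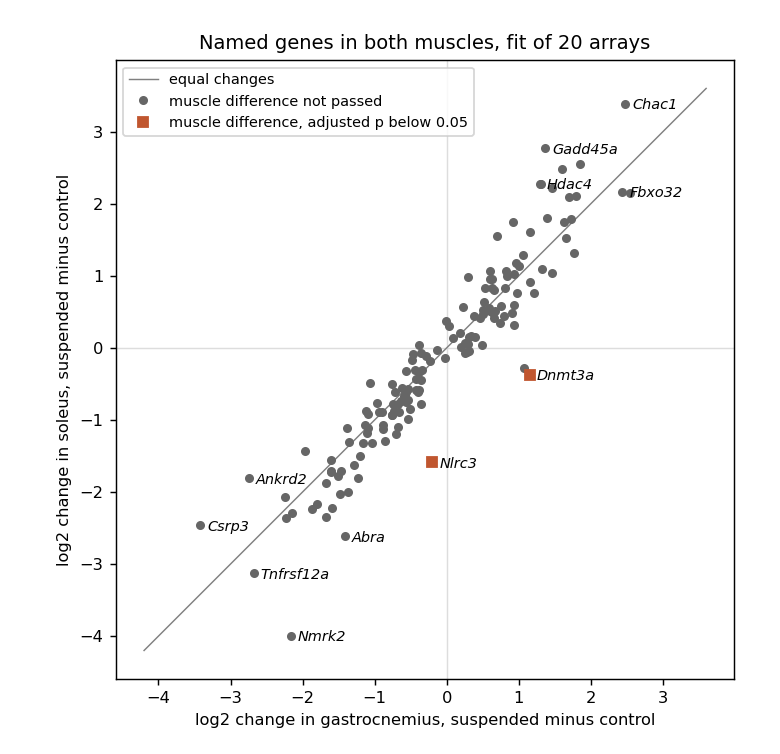
Change in soleus (y axis) against change in gastrocnemius (x axis), both log2 and from the fit of 20 arrays, for the 153 named genes, with the grey line of equal changes. Orange squares are the 2 genes whose changes differed at an adjusted p below 0.05, Dnmt3a and Nlrc3; Csrp3 lies above the line at the lower left and Nmrk2 below it.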

How the data were processed

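The authors deposited Agilent Feature Extraction 9.1.3.1 spot intensity values of 1-colour (Cy3) arrays, background-subtracted and detrended within each array per the file headers, with no scaling between arrays. Their series table repeated these intensities. Of 45018 spots, 43379 were not controls, and spots of a probe were averaged to 41174 probes. Names came from RefSeq through an accession for 22951 probes, a current symbol for 6659 and an older one for 3109; 8455 kept the array's name. Intensities were divided by the array's 75th percentile and taken to log2. Probes well above background on 4 of 5 arrays of a group were kept, with the brightest per gene. Changes were fitted with limma 3.58.1 in R 4.3.3 on the 10 gastrocnemius arrays, two-sided, with Benjamini-Hochberg adjustment, and the difference between muscles on all 20 arrays. The script was tested on simulated data. The number of arrays limits the precision. P-values rest on the spread between the arrays of a group, which holds differences between slides as well as between mice. They do not separate suspension from slide or scan day.

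The named genes were the 15 highest and 15 lowest passing changes without overlap (clone, predicted and accession names left out), 26 genes taken whatever their values, up to 3 passing genes at each end of each of 48 gene lists (or the 2 with the lowest p where none passed), and genes that differed between muscles. The 26 genes, the lists and their members were chosen with earlier results of these data known. Same-numbered control and HLS mice did not deviate together (correlations of -0.08 to 0.08), so their number does not pair them. Both muscles of 1 animal share a number, and their correlations were -0.34 to 0.17. Alternatives tried were the background correction, the scaling (quantile, median, spike-ins), the authors' table, 2 other filters, the mean of probes, an intensity trend, slide, scan day or replicate blocks, and leaving out each array. The comparison within slide 2 and leaving out each soleus array were added after the data were seen.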

Additional observations from a re-analysis of the deposited data

Results flagged for a closer look

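An array stood apart from the other 4 of its group for 15 of the 306 pairs of a named gene and a group, by Dixon's criterion for 5 values (0.71); chance gives about 1 in 20. Among genes of muscle loss, Fbxo32 was low in control 2 at 1.06, against 1.92 to 2.22 in the other controls. Gadd45a was low in HLS 4 at 2.26 against 2.84 to 3.02, and Gadd45g in HLS 2 at 5.06 against 6.21 to 6.45. Sesn1 was high in HLS 5 at 3.14 against 2.43 to 2.63. The kinase subunit gene Pik3ca was low in control 1 at 1.04 against 1.21 to 1.26, and Igf1r was low in HLS 2 at -0.34 against 0.17 to 0.36. Of matrix genes, Timp1 was high in control 2 at 2.38 against 1.59 to 1.80, Adamts1 was low in control 5 at 1.63 against 2.04 to 2.19, and Tnc was high in HLS 2 at 0.26 against -0.10 to -0.01. The macrophage marker Adgre1 was high in control 5 at 0.34 against -0.06 to 0.00. Mt2 was high in control 3 at 3.01 against 1.31 to 1.76. In HLS 5, Inmt stood at 2.11 against 1.18 to 1.40 and Plin4 at 6.40 against 5.52 to 5.76. Gpx3 was high in HLS 1 at 1.90 against 1.22 to 1.38, and the interferon gene Ifit3 in HLS 4 at 0.61 against 0.02 to 0.13. HLS 2 and HLS 5 held 3 such values each, and HLS 3 and control 4 held 0.

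The change after suspension differed between the muscles for Dnmt3a, by 1.53 (gastrocnemius minus soleus), and for Nlrc3, by 1.38. Neither difference passed with the mean of the gene's probes.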

How the results depend on the processing

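Against 1252 passing genes, 19 passed with slide as a block, 70 with scan day as a block, 2339 with slide as a random block, 801 in the fit of 20 arrays, and 682 with spike-in scaling relative to the shift of all genes (23379 without removing that shift). Leaving out 1 array gave 767 to 1085. The paired analysis with a replicate block gave 568, although the numbers do not pair control with HLS mice. The other scalings, filters and the authors' table gave 963 to 1597, within 1.5 times. Of the 126 named genes that passed, 9 kept the call with slide and 18 with scan day as a block, and 92 kept it in every fit without 1 array. With the replicate block 39 lost it, and 47 lost it in a setting other than these. Spike-in scaling without removing the shift, where 23338 genes passed as higher and 41 as lower, was not scored gene by gene. Over the other settings 1 direction reversed among those 126: Nfkb1 was 0.0232 (adjusted p = 0.908) with the mean of its probes. The cause was not tested. The difference between muscles, 2 genes, was 4 with normexp, 6 with quantile normalization, 1 with median scaling, 1 with spike-ins relative to the shift (23927 without), 1 without a filter, 8 with probes well above background on all arrays, 9 with an intensity trend and 6 with a random slide block. It was 0 in limma with the mean of probes, with slide, with scan day and with the animal as a replicate block (unadjusted p below 0.05 for 1467, 1035, 1235 and 1457 genes), and 1 to 3 without 1 gastrocnemius array. Without 1 soleus array, tried after the data were seen, it was 1 to 13, the 13 being without soleus HLS 1.

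HLS 1 alone shares a slide or scan day with controls, so the fits with slide or scan day as a fixed block rest on 1 mouse, and a call lost there is not shown to be absent. Lists of the FoxO, autophagy, fatty acid, inflammation and unfolded protein genes moved by over 1.5 times without some single arrays, while the stretch and heat shock lists did not. Of the 30 genes at the ends, Kcna5, Depp1 and Slc10a6 lost their call without some single arrays.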
